A study of Mus musculus with 6 samples.

Results

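The collagen genes are taken here as the protein-coding genes whose symbol is Col, a number, the letter a and a second number, which leaves out genes that only carry a collagen-like stretch. The rule found 44 genes among the 52636 gene rows of the table, and all 44 passed the filter on low counts that left 32496 genes to be tested. Their transcripts were measured by ultra-low input bulk RNAseq of medullary thymic epithelial cells (mTEC) sorted from thymi of C57BL/6 mice at 6 weeks of age, of which tuft-like and non-tuft-like mTEC gave 3 libraries each. Both populations were sorted as UEA1+, MHCII low, CD80-, Sca1- and CD63-, so they shared every gate except the last pair. In its flow cytometry the study gated them within CD45- EpCAM1+ cells, which the labels of these libraries do not repeat. The tuft-like cells were CD117+ and CD66a+ (the products of Kit and Ceacam1), and the non-tuft-like cells were negative for both. The non-tuft-like population is thus what remained in the same gate and is not a single named cell type. The labels do not say whether the 3 libraries of a population came from separate animals, so the p-values measure the spread between these libraries, which may be technical.

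Collagens are proteins whose chains wind around each other in a triple helix. Fibrillar collagens form the ropes of connective tissue, type IV chains form the sheet of the basement membrane on which epithelia and vessels sit, and type VI chains form fine beaded filaments close to cell surfaces. The FACIT collagens, with interrupted helices, decorate fibrils or anchor them to neighbouring matrix, and other members are transmembrane proteins or carry heparan sulphate into basement membranes. The thymic medulla holds vessels and fibroblasts that make much of its matrix, and epithelial cells add to the basement membrane they rest on.

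The libraries held 20097617 to 48369825 reads on genes, so that the limit which a count of 0 allows, taken as 3 counts, lay between 0.0639 and 0.124 CPM (reads scaled by TMM factors to a common library total). Such limits cover counting error only. Libraries differed in the reads that the counting assigned to no feature, a class not limited to reads outside genes. They took 34.4% to 52.5% of all reads in the non-tuft-like libraries. In tuft-like libraries 1, 2 and 3 the shares were 61.6%, 47.6% and 19.7%. Tuft-like library 3 also had 10 collagen genes at 3 counts or fewer, against 0 to 2 in each of the other libraries. As a measure of background, the 99th percentile of 1092 olfactory receptor genes lay between 1.26 and 2.78 CPM per kb of exon, and 20 to 23 of the 44 collagen genes stood above it in each non-tuft-like library and 12 to 18 in each tuft-like library. Col5a1, Col5a2, Col6a4, Col12a1, Col14a1 and Col19a1 stood above it in all 3 non-tuft-like libraries and in no tuft-like library. Col4a4 and Col9a3 did the reverse. The mean of the receptor genes was 0.179, 0.194 and 0.432 CPM per kb in the non-tuft-like libraries. In tuft-like libraries 1, 2 and 3 it was 0.631, 0.364 and 0.0725 CPM per kb. All 6 markers of tuft cells tested (Dclk1, Trpm5, Pou2f3, Il25, Avil and Sh2d6) were higher in tuft-like mTEC. Epcam, the pan-epithelial adhesion protein, had 229.5, 771.2 and 929.9 CPM in the non-tuft-like and 248.0, 783.6 and 1041 CPM in the tuft-like libraries. Library 1 was thus the lowest of each population.

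The sum of collagen RNA overlapped between the populations, while single chains differed. Summed over the 44 genes, collagen transcripts reached 1420, 1378 and 1513 CPM in the non-tuft-like and 1379, 1054 and 1586 CPM in the tuft-like libraries. Col16a1, Col4a4 and Col27a1 rose in tuft-like mTEC, by 6.79-fold, 13.4-fold and 4.32-fold, and Col4a1 fell to a level 2.97-fold lower. By edgeR's quasi-likelihood test at a false discovery rate (FDR) of 0.05 over all tested genes, 3 of the 44 genes were thus called higher and 1 lower. In the whole table, 2.11% of the genes tested were called, 1.16% higher and 0.951% lower, and of the genes that averaged 10 CPM or more in either population 5.55% were called, against 4 of the 29 collagen genes at that level. In bulk RNA, fewer cells of a type that makes a transcript and less of the transcript per cell cannot be told apart.

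A further 8 genes had an unadjusted p under 0.05 without passing the threshold, 2 of them higher (Col9a3 and Col9a1) and 6 lower in tuft-like mTEC (Col18a1, Col6a2, Col5a2, Col6a1, Col12a1 and Col7a1). That makes 5 higher and 7 lower at an unadjusted p under 0.05, where 8.97% of all tested genes stood, 4.38% higher and 4.59% lower. Among genes of at least 10 CPM in either population the share was 21.8%, against 12 of 29 collagen genes. The libraries of both populations did not overlap for 5 genes that were higher and 10 that were lower in tuft-like mTEC, where 16.0% of all tested genes did so, 7.18% higher and 8.85% lower. The median log2 fold change of the 44 genes was -0.13, beside 0.02 for all tested genes, with 21 genes above and 23 below 0. For the 29 collagen genes of at least 10 CPM in either population it was -0.77, beside -0.02 for all genes at that level. The plot of fitted fold changes shows these genes in order.

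**Figure D1:**
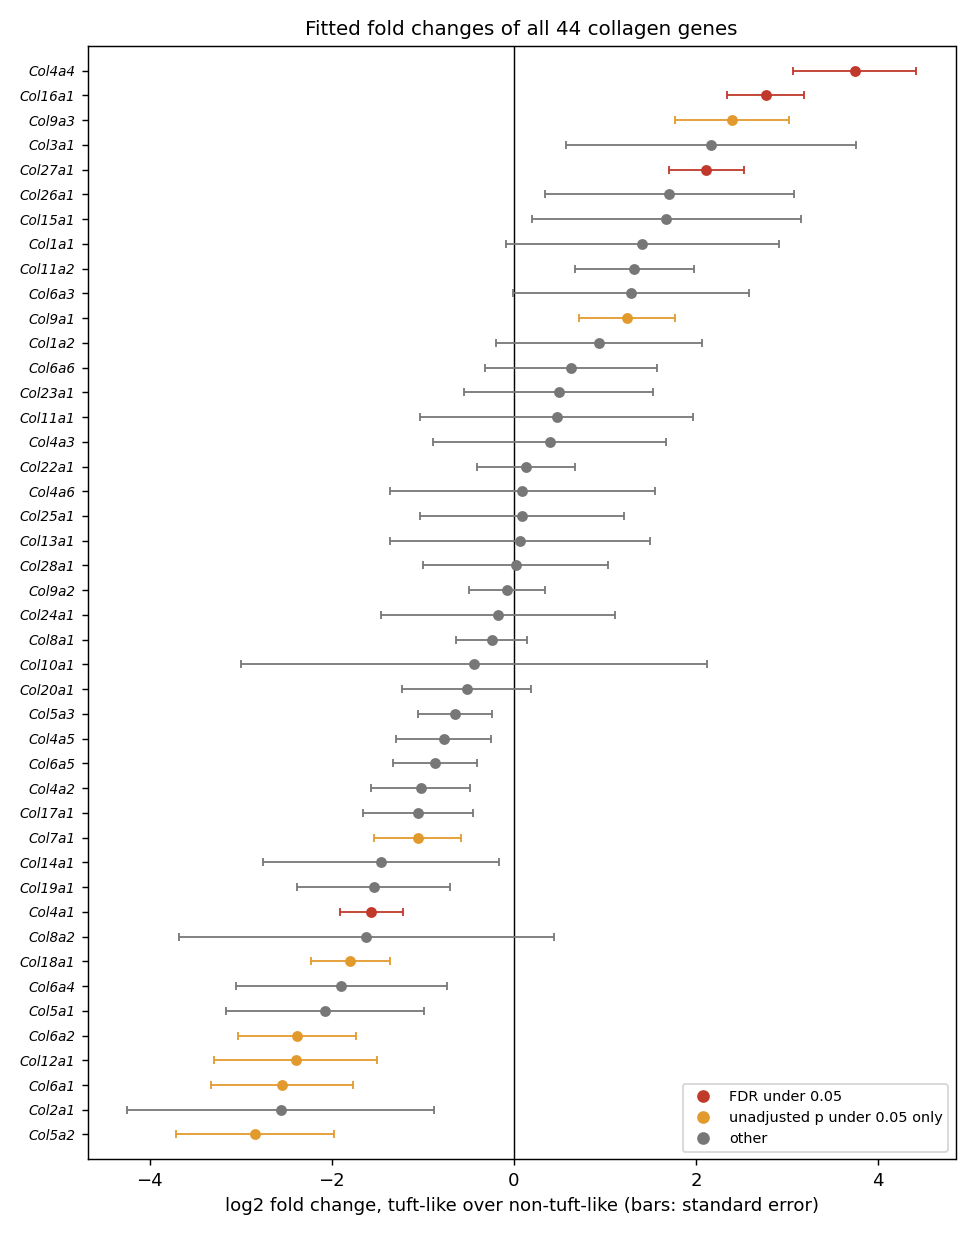
Log2 fold change (x axis) of each of the 44 collagen genes (y axis), tuft-like over non-tuft-like mTEC, with standard errors from the edgeR fit on 3 libraries per population. Red points passed an FDR of 0.05 (Col4a4, Col16a1, Col27a1 and Col4a1), orange points had an unadjusted p under 0.05 only, and grey points neither.

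The levels of the 29 genes with at least 10 CPM in either population, which hold all of those named above, were plotted by library and structural class. The 15 other genes had means of at most 9.42 CPM in either population.

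**Figure D2:**
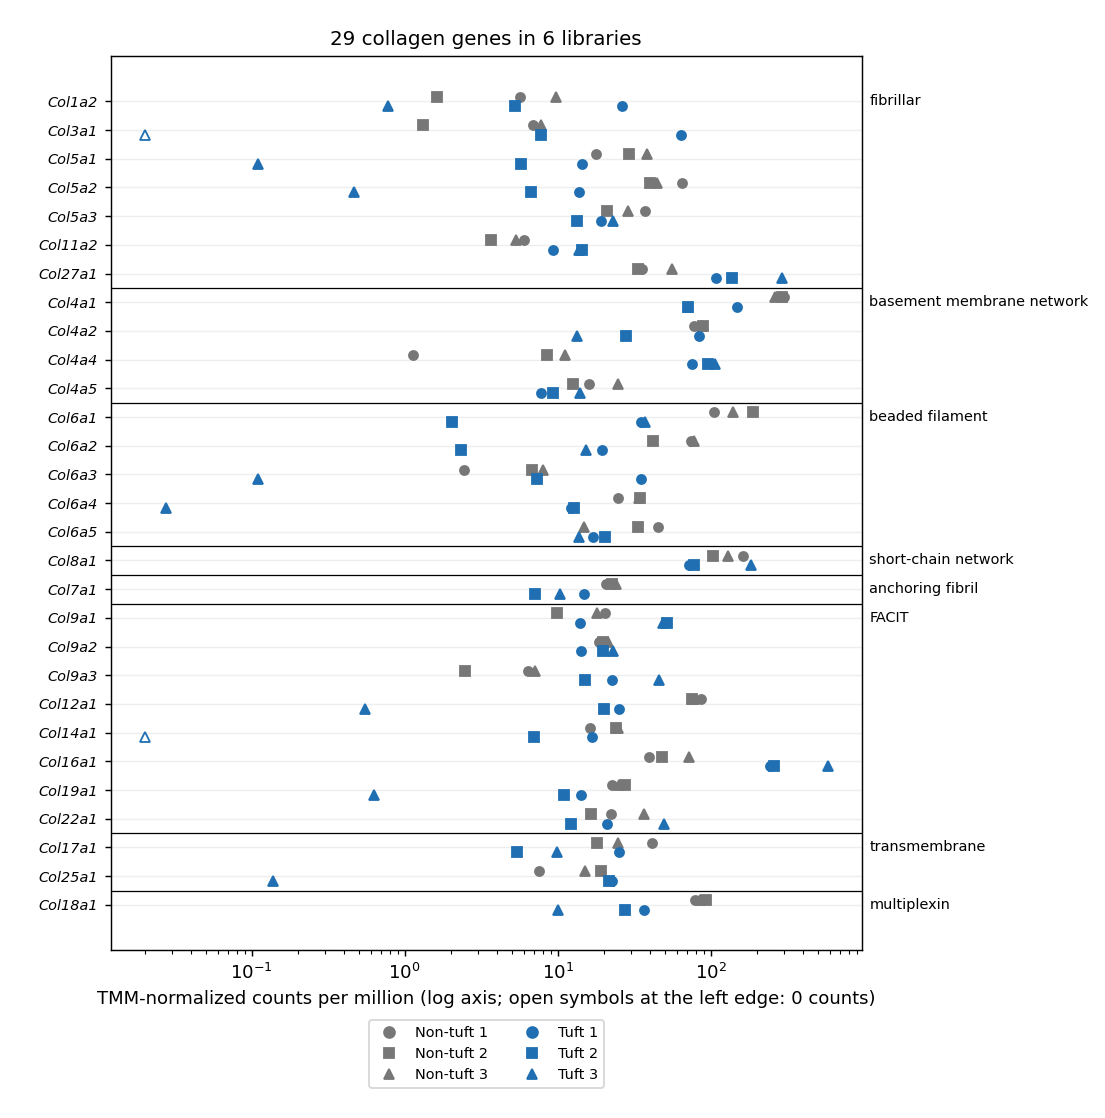
TMM-normalised CPM on a log axis (x) of 29 collagen genes (y), grouped by structural class, in the 3 non-tuft-like (grey) and 3 tuft-like (blue) libraries, with 1 symbol per library and open symbols for 0 counts. Blue symbols lie apart to the right for 5 genes, among them Col4a4, Col16a1 and Col27a1, and apart to the left for 10, among them Col4a1 and Col18a1. Tuft-like library 3 (blue triangle) was far below the others for Col5a1, Col6a4, Col12a1 and Col25a1. None of these stood above the olfactory receptor background in a tuft-like library.

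To compare genes with each other, levels were divided by the exonic length of each gene, and each gene's share of the summed collagen CPM per kb was taken. On this scale the leading genes of the non-tuft-like libraries were Col4a1, Col6a1, Col8a1 and Col4a2, and those of the tuft-like libraries Col16a1, Col8a1, Col27a1 and Col4a1. Col16a1 made up 3.01%, 3.6% and 5.07% of the collagen signal in the non-tuft-like libraries and 19.8%, 27.8% and 40.2% in the tuft-like libraries. Col4a1 made up 20.8%, 19.9% and 16.9% in the former and 10.9%, 6.88% and 4.47% in the latter. The populations did not overlap in either share, and the smallest tuft-like share of Col16a1 lay close to the shares of Col4a1 in non-tuft-like mTEC. By class, the FACIT genes held 16.1% to 19.5% in non-tuft-like and 32.7% to 56.7% in tuft-like libraries, the beaded filament genes 21% to 28.7% and 4.84% to 9.74%, and the type IV genes 26.4% to 28.7% and 11.1% to 24.2%. Shares within a library add up to 100%, so a rise of 1 gene lowers the shares of all others. The ratio of Col16a1 to Col4a1, a pair picked because both were called in opposite directions, was 0.145, 0.181 and 0.300 in the non-tuft-like and 1.81, 4.04 and 8.99 in the tuft-like libraries (both per kb), given as a description with no test.

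**Figure D3:**
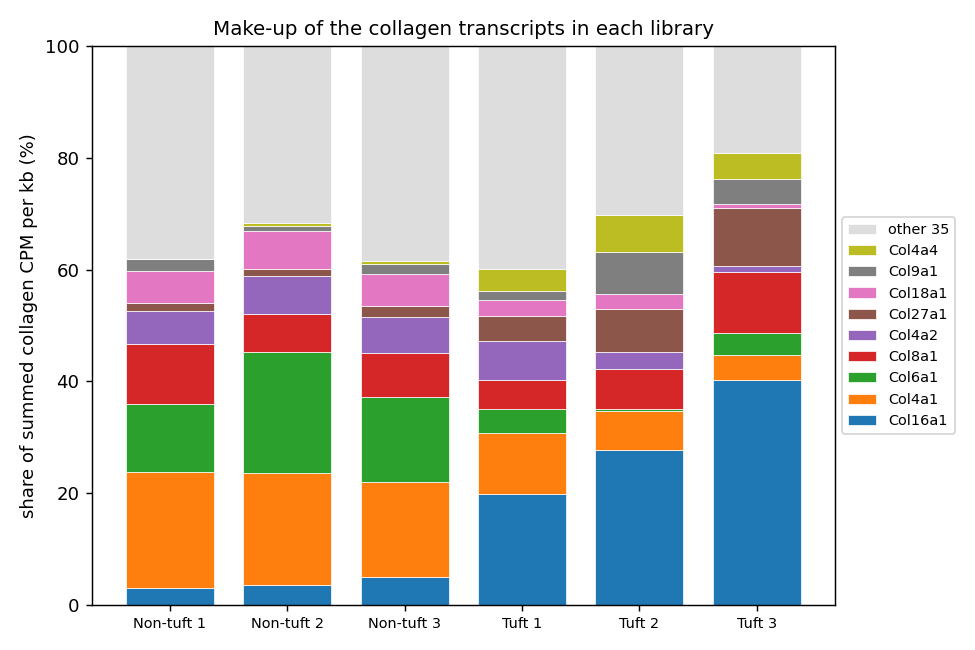
Share of the summed collagen CPM per kb (y axis, percent) held by each of 9 genes and by the other 35 together, in each of the 6 libraries (x axis). The blue segment at the base, Col16a1, grows from 3.01% to 5.07% in non-tuft-like to 19.8% to 40.2% in tuft-like libraries, and the orange segment above it, Col4a1, shrinks.

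Among the 9 FACIT genes, Col16a1 rose, and Col12a1, Col19a1, Col14a1 and Col20a1 were not called and had at least 2 tuft-like libraries below every non-tuft-like one. Col16a1, whose product is a homotrimer found at fibrils and near epithelial and vascular basement membranes, had 39.7, 48.2 and 71.9 CPM in the non-tuft-like and 243.0, 259.1 and 582.5 CPM in the tuft-like libraries. Every tuft-like library was above every non-tuft-like library, and tuft-like library 3 was the highest. The means were 53.3 ± 16.7 and 361.5 ± 191.5 CPM (SD, n = 3 each), with a log2 fold change of 2.76 (SE 0.42, edgeR FDR = 0.00690). The call held in all 6 fits that left out 1 library, with log2 fold changes of 2.20 to 3.0 and an FDR of at most 0.0395, and in the other 9 alternatives.

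Type IX collagen is assembled from the products of Col9a1, Col9a2 and Col9a3 and is best known from cartilage and the eye. Col9a3 had 6.44, 2.49 and 7.09 CPM in the non-tuft-like and 22.8, 15.1 and 46.3 CPM in the tuft-like libraries. The libraries did not overlap, and only the tuft-like values stood above the olfactory receptor background, but the fit did not call the gene (log2 fold change 2.39, SE 0.62, edgeR FDR = 0.10). Col9a1 had 20.5, 9.84 and 18.1 against 13.9, 51.9 and 48.7 CPM, so that tuft-like library 1 lay within the non-tuft-like range (log2 fold change 1.24, SE 0.52, edgeR FDR = 0.481). Col9a2 lay between 14.1 and 22.9 CPM in all 6 libraries, with a log2 fold change of -0.07 (SE 0.42). The ratio of Col9a3 to Col9a2 was 0.276, 0.101 and 0.267 in the non-tuft-like and 1.3, 0.607 and 1.62 in the tuft-like libraries (per kb), without overlap. Since Col9a3 alone did not overlap either, this ratio is a description and not a separate result. Col9a3 shares 234 bases of exon with Tcfl5 on the opposite strand, and the strand setting of the counting is not given in the sources used here, so reads of this stretch may belong to either.

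The other FACIT genes had lower or overlapping levels in tuft-like mTEC, and none was called. Col12a1, which encodes a fibril-bound collagen of tendon and skin, had 86.9, 75.4 and 78.4 CPM in the non-tuft-like and 25.3, 20.0 and 0.552 CPM in the tuft-like libraries. The libraries did not overlap, and tuft-like library 3 was far below the other tuft-like libraries (log2 fold change -2.40, SE 0.90, edgeR FDR = 0.354). Without that library the fit gave -1.87 and an FDR of 0.010. No tuft-like value of Col12a1 stood above the olfactory receptor background. Col19a1 also did not overlap, at 22.6 to 27.5 CPM in the non-tuft-like libraries against 14.2, 11.1 and 0.635 CPM (FDR = 0.779). Its tuft-like values did not stand above that background either. Col14a1 had 16.4, 24.0 and 24.8 against 16.7, 7.04 and 0 CPM, and Col22a1, known from tissue junctions, 22.4, 16.5 and 36.5 against 21, 12.3 and 49.5 CPM. Both overlapped, with an FDR of 1.0 each. Col20a1 was under 10 CPM on average in both populations, with a log2 fold change of -0.52 (SE 0.71).

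The type IV genes did not change together. Their chains form several kinds of trimer, of which the trimer of the products of Col4a1 and Col4a2 is the general one, the trimer of Col4a3, Col4a4 and Col4a5 is known from the filtration barrier of the kidney and from the inner ear, lung and eye, and the trimer of Col4a5 and Col4a6 from skin and smooth muscle. Col4a4 rose the most of all 44 genes, from 1.14, 8.49 and 11.2 CPM in the non-tuft-like to 75.3, 96.7 and 106.3 CPM in the tuft-like libraries. The lowest tuft-like library was thus far above the highest non-tuft-like one, and only the tuft-like libraries stood above the olfactory receptor background. The means were 6.93 ± 5.19 and 92.8 ± 15.9 CPM (SD, n = 3 each), with a log2 fold change of 3.74 (SE 0.67, edgeR FDR = 0.0173). The call was lost without tuft-like library 3 (log2 fold change 3.59, FDR = 0.0514) and when background counts were subtracted (4.32, FDR = 0.111).

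The partner chains of Col4a4 did not follow. Col4a3 had 9.69, 2.21 and 8.42 CPM in the non-tuft-like and 19.1, 7.45 and 0.0828 CPM in the tuft-like libraries, the last of these from 3 counts. Tuft-like libraries 1 and 3 thus lay on either side of the whole non-tuft-like range, and no library stood above the olfactory receptor background (log2 fold change 0.39, SE 1.28, edgeR FDR = 1.0). Col4a5 had 15.9, 12.6 and 24.8 against 7.81, 9.35 and 14.0 CPM, which overlapped (log2 fold change -0.77, SE 0.53, FDR = 1.0). Per kb of exon, Col4a4 was at 0.0451, 0.428 and 0.285 times the level of Col4a5 in the non-tuft-like and at 6.10, 6.55 and 4.81 times its level in the tuft-like libraries, without overlap. Against Col4a3 the ratio was 0.110, 3.6 and 1.24 in the non-tuft-like libraries and 3.69 and 12.2 in tuft-like libraries 1 and 2, and none was formed in tuft-like library 3, where Col4a3 had 3 counts. Since Col4a4 had already been called, these ratios are a description and not a separate result. Col4a6 was at or below 10 CPM in every library, with a log2 fold change of 0.09 (SE 1.46).

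Col4a4 and Col4a3 are transcribed away from each other on chromosome 1, with 71 bases between their annotated starts, so the bases that separate the gene that rose from its neighbour that did not pass the test can be shown in full. Col4a4 lies at chr1:82448423-82586849 on the minus strand and Col4a3 at chr1:82586921-82722059 on the plus strand (mm10, GENCODE M21). The stretch between them, chr1:82586850-82586920 of GRCm38.p6 (RefSeq), is read here on the minus strand towards Col4a4. It was searched on both strands for the GC box GGGCGG, the CCAAT box CCAAT and the TATA box TATAAA, held none of them and so has no capitals.
Col4a4 to Col4a3 interval: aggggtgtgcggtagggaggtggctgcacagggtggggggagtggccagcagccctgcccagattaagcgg
Its GC content was 69.0%. Col4a3 also shares 563 bases of exon with C430014B12Rik on the opposite strand, whereas Col4a4 shares no exonic base with another annotated gene.

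Col4a1, the most abundant collagen gene per kb in non-tuft-like mTEC, had 303.2, 294.4 and 265.2 CPM there and 148.3, 71.0 and 71.6 CPM in the tuft-like libraries. The populations did not overlap and the non-tuft-like libraries were close together. The means were 287.6 ± 19.9 and 97.0 ± 44.5 CPM (SD, n = 3 each), with a log2 fold change of -1.57 (SE 0.35, edgeR FDR = 0.0482). This call was near the threshold and held in 4 of 15 alternatives, with an FDR of up to 0.281 in the others and log2 fold changes of -2.01 to -1.39 throughout. Without tuft-like library 1 the FDR was 0.00509, and it was above 0.05 without any other single library. Col4a2 had 78.1, 89.1 and 87.8 CPM in the non-tuft-like and 84.2, 28.0 and 13.4 CPM in the tuft-like libraries, so that tuft-like library 1 stayed at the non-tuft-like level (log2 fold change -1.02, SE 0.55, edgeR FDR = 0.755). Without tuft-like library 1 the fit called it lower (-2.03, FDR = 0.0255). The ratio of Col4a1 to Col4a2 was 3.44, 2.93 and 2.68 in the non-tuft-like and 1.56, 2.25 and 4.73 in the tuft-like libraries, which overlapped (per kb).

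**Figure D4:**
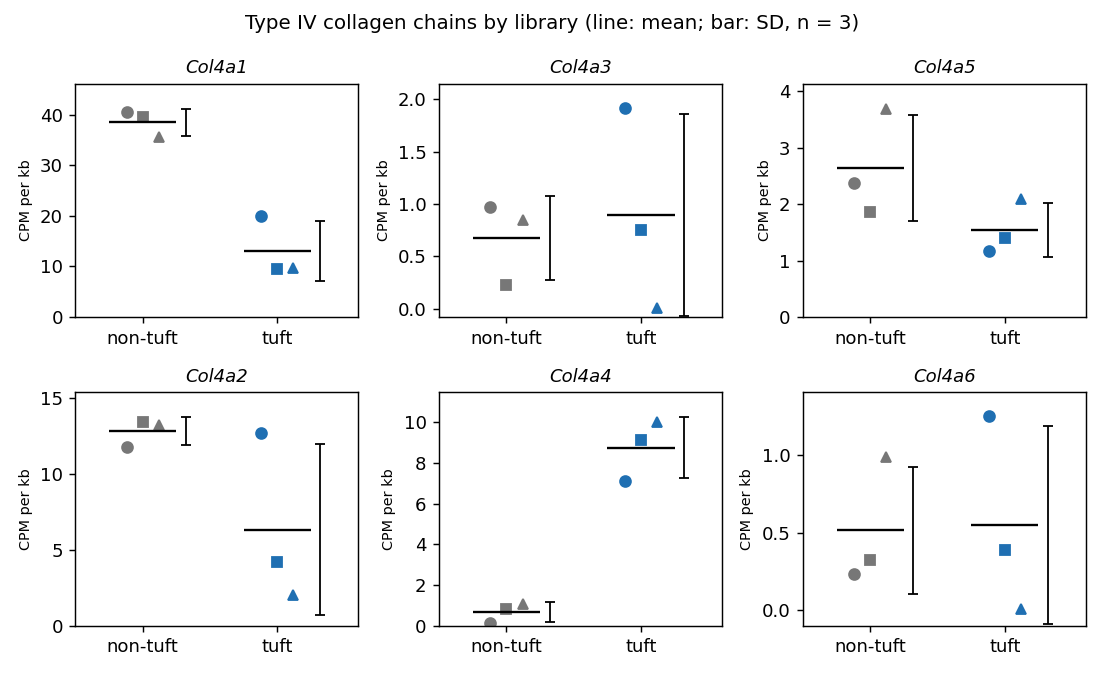
CPM per kb of exon (y axes, linear, each panel with its own scale) of the 6 type IV collagen genes in the non-tuft-like (grey) and tuft-like (blue) libraries, with circles, squares and triangles for libraries 1, 2 and 3. Lines are means and bars SDs (n = 3). Col4a4 is the 1 gene with all tuft-like libraries above all non-tuft-like ones, and Col4a1 the 1 gene with all of them below.

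Markers of pericytes and smooth muscle, basal keratinocytes, mature mTEC and cortical thymic epithelial cells had lower values in tuft-like mTEC as well. By contrast, 7 of 8 endothelial markers had a log2 fold change above 0, but of these only Tek did not overlap between the populations. Pecam1, Cdh5, Kdr, Emcn, Cldn5 and Tie1 overlapped and were highest in tuft-like library 1. Of 8 pericyte and smooth muscle markers, 7 had a log2 fold change below 0, 6 had an unadjusted p under 0.05 and 1 (Rgs5, FDR = 0.0130) was called, and their summed level was 269.7 to 436.5 CPM in the non-tuft-like and 46.3 to 86.4 CPM in the tuft-like libraries. None of the 8 was at 0 in any library. Of 7 basal keratinocyte markers, 6 were below 0 and 1 (Krt14, FDR = 0.000885) was called, with a summed level of 1134 to 1454 CPM against 426.3 to 679.9 CPM. For comparison, 2.11% of all tested genes were called and 8.97% had an unadjusted p under 0.05. The 4 mature mTEC markers were all below 0, and 3 (Aire, Fezf2 and Cd40) were called lower. They summed to 564.3 to 697.1 CPM in the non-tuft-like and 58.8 to 76.8 CPM in the tuft-like libraries. Of 5 cortical markers, 4 were below 0 and 1 (Ctsl) was called lower, with sums of 391.3 to 963.3 against 161.1 to 266.3 CPM. The part of any of these lists in the levels of Col4a1, Col18a1, Col6a1 and the other genes that were lower in tuft-like mTEC was not tested. In flow cytometry the study gated these populations within EpCAM1+ cells, and the labels of these libraries do not state that gate.

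Of the 11 fibrillar genes, Col27a1 rose. It encodes a fibrillar collagen best known from cartilage and had 35.5, 33.7 and 56.2 CPM in the non-tuft-like and 109.1, 138.0 and 294.3 CPM in the tuft-like libraries. All tuft-like libraries were above all non-tuft-like ones, and library 3 was the highest in both populations. The means were 41.8 ± 12.5 and 180.4 ± 99.6 CPM (SD, n = 3 each), with a log2 fold change of 2.11 (SE 0.41, edgeR FDR = 0.0273). The call was lost without non-tuft-like library 1 (1.99, FDR = 0.0854) and without non-tuft-like library 2 (1.98, FDR = 0.129), and held without each of the others. Col11a2, a chain of the cartilage collagen XI, was also without overlap at 6.06, 3.66 and 5.37 against 9.30, 14.5 and 13.9 CPM, but was not called (log2 fold change 1.32, SE 0.65, edgeR FDR = 0.667).

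Col16a1 and Col27a1, 2 of the 3 genes that rose, both lie on chromosome 4, far apart at chr4:130047840-130099283 and chr4:63214004-63334991, both on the plus strand. Neither shares an exonic base with another annotated gene. The 250 bases before their RefSeq starts are shown because both genes were called higher. Capitals mark a GC box (GGGCGG) in both and a CCAAT box in Col16a1. The first stretch is chr4:130047590-130047839 and the second chr4:63215162-63215411, both of GRCm38.p6 on the plus strand. The latter lies inside the GENCODE gene, which has an earlier annotated start.
Col16a1 promoter: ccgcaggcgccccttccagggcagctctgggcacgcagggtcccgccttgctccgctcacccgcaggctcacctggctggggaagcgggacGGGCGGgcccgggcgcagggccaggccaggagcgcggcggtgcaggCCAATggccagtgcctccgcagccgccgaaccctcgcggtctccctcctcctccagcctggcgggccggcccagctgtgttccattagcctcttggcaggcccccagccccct
Col27a1 promoter: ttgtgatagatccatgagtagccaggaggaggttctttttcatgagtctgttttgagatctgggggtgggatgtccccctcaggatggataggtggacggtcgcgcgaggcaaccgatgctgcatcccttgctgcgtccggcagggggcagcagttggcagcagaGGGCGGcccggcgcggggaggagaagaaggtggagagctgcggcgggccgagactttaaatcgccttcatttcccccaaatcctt
Their GC contents were 75.6% and 59.6%. Over the RefSeq windows of 35 collagen genes that had one (250 bases before to 50 after a start, both strands searched), 22 genes held the GC box and 13 the CCAAT box, which 35.7% and 37.4% of all 32851 windows held. The TATA box was found for 5 of the 35 genes (13.6% of all windows), and the octamer ATGCAAAT, a motif of POU family factors, for 2, Col25a1 and Col3a1 (1.74% of all windows). The 35 genes had 38 windows and were counted by gene, while the shares are of single windows. A match says only that the letters are present.

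Since Col16a1, Col27a1, the type IX genes and Col11a2 are known from cartilage, the chondrocyte markers are given beside them. Of 10 markers, 9 were tested, none was called, and 8 had a log2 fold change below 0. Acan and Comp lay at or under 12.7 CPM in all libraries, Snorc between 0 and 0.221 CPM, and Matn1 at 38.6 to 42.7 CPM in the former population against 0.0828 to 3.77 CPM in the latter. Sox9, a transcription factor of chondrocytes and of several epithelia, was the exception at 129.9, 195 and 184 against 312, 481 and 782 CPM (log2 fold change 1.63, SE 0.38, edgeR FDR = 0.0627). The summed level of the list was 206.8 to 293.4 CPM in the non-tuft-like and 342.8 to 816.4 CPM in the tuft-like libraries, most of it from Sox9. Its part in the collagen levels was not tested.

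The chains of type V collagen, which start fibrils and limit their width, had lower or overlapping levels in tuft-like mTEC, and none was called. Col5a2 had 65.4, 40.4 and 44.8 CPM in the non-tuft-like and 13.9, 6.66 and 0.469 CPM in the tuft-like libraries. The populations did not overlap and the tuft-like libraries were spread widely (log2 fold change -2.85, SE 0.86, edgeR FDR = 0.183). Without tuft-like library 3 the fit called it lower (-2.33, FDR = 0.0320). Col5a1 also did not overlap, at 17.9, 29.3 and 38.5 against 14.4, 5.79 and 0.110 CPM (log2 fold change -2.08, SE 1.09, FDR = 0.733). Neither Col5a2 nor Col5a1 stood above the olfactory receptor background in a tuft-like library. Col5a3 had 37.0, 21.1 and 28.8 against 19.1, 13.3 and 23.1 CPM, which overlapped (FDR = 0.937).

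The major fibrillar collagens of connective tissue were low in both populations and highest in tuft-like library 1. Col3a1 had 6.94, 1.32 and 7.79 CPM in the non-tuft-like and 64.1, 7.78 and 0 CPM in the tuft-like libraries, from 1552, 266 and 0 counts in the latter. Col1a2 had 5.65, 1.64 and 9.69 against 26.4, 5.29 and 0.773 CPM, and Col1a1 0.883, 3.94 and 3.11 against 17.0, 4.06 and 0.0276 CPM. All 3 overlapped between the populations, each had an FDR of 1.0, and only Col3a1 in tuft-like library 1 stood above the olfactory receptor background. Without that library their log2 fold changes turned from 2.16, 0.93 and 1.41 to -0.45, -0.89 and -0.37. The cartilage chains Col2a1 and Col11a1 and the minor fibrillar gene Col24a1 were at or under 13.6 CPM in every library.

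Some markers of vessels and fibroblasts were also highest in that library, and others were not. Pecam1, the endothelial adhesion protein CD31, had 106.3 CPM in tuft-like library 1 and 3.07 to 8.99 CPM in the others, and Fbln2, a fibroblast matrix gene, 68.1 CPM there and at most 7.34 CPM elsewhere. By contrast, the fibroblast marker Vim had 21.1 CPM there against 53.7 to 54.6 CPM in the non-tuft-like libraries, and Fbln1 7.23 against 8.46 to 22.8 CPM. Of 8 endothelial markers 7 had a log2 fold change above 0 and 1 was called (Tek, FDR = 0.00565, high in all 3 tuft-like libraries). Their summed level was 169.1 to 240.5 CPM in the non-tuft-like and 261.4 to 511.3 CPM in the tuft-like libraries. Tek made up much of the tuft-like sums, at 141.8 to 225.0 CPM there against 11.4 to 36.7 CPM in the non-tuft-like libraries. The other endothelial markers overlapped between the populations. Of 12 fibroblast markers 11 were tested and none was called, with sums of 116.2 to 163.9 and 56.0 to 198.2 CPM, and Twist2 was at 0 in 5 of the 6 libraries. Of the 11 tested, 6 had a log2 fold change above 0 and 5 below 0. Over all tested genes, 2.11% were called. None of these lists was tested as such. Their part in the collagen levels of tuft-like library 1 was not tested.

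The type VI genes encode chains of the beaded filaments, with the product of Col6a1 and Col6a2 joined either by that of Col6a3 or by one of Col6a4, Col6a5 and Col6a6. None of the 6 was called, and 3 of them did not overlap between the populations, all lower in tuft-like mTEC. Over all tested genes, 8.85% were lower in tuft-like mTEC without overlap. Col6a1 had 104.6, 189.0 and 140.1 CPM in the non-tuft-like and 34.9, 2.05 and 37.3 CPM in the tuft-like libraries. Tuft-like library 2, not library 3, was the lowest (log2 fold change -2.55, SE 0.78, edgeR FDR = 0.187), and without it the fit called the gene lower (-2.0, FDR = 0.0407). Col6a2, which lies on the same strand of chromosome 10, had 74.4, 42.2 and 78.3 against 19.6, 2.34 and 15.4 CPM, so that tuft-like library 2 was again the lowest (log2 fold change -2.38, SE 0.65, FDR = 0.117). Col6a4 had 25, 34.5 and 34.0 against 12.3, 12.8 and 0.0276 CPM (FDR = 0.898). Its tuft-like values did not stand above the olfactory receptor background.

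Col6a3, Col6a5 and Col6a6 overlapped between the populations. Col6a3 had 2.46, 6.81 and 8.04 CPM in the non-tuft-like and 34.8, 7.31 and 0.110 CPM in the tuft-like libraries, so it was high in tuft-like library 1 alone, as Col3a1 was. Col6a5 had 45.1, 33.4 and 14.8 against 17.0, 20.3 and 13.8 CPM (log2 fold change -0.87, SE 0.46, edgeR FDR = 0.760). Col6a6 lay between 1.57 and 15.4 CPM. Per kb, Col6a1 was at 47.6 to 116.1 times the level of Col6a3 in the non-tuft-like libraries, and at 2.74, 0.765 and 921.1 times its level in the tuft-like libraries, the last from a Col6a3 level near the limit that a count of 0 allows.

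Among the remaining classes no gene was called. Col18a1, the basement membrane heparan sulphate collagen whose cleaved end is endostatin, came closest, at 78.9, 93.7 and 85.1 CPM in the non-tuft-like and 36.9, 27.4 and 10 CPM in the tuft-like libraries. The populations did not overlap (log2 fold change -1.80, SE 0.43, edgeR FDR = 0.0718), and the fit called it lower without tuft-like library 1 (-2.20, FDR = 0.0348) and without tuft-like library 3 (-1.46, FDR = 0.0322). Col15a1, the related multiplexin, had 0.284 to 2.92 CPM in the non-tuft-like and 13.1, 2.19 and 0.249 CPM in the tuft-like libraries, with its peak in tuft-like library 1.

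Col8a1, a short-chain collagen of vessels and the corneal endothelium, was among the 3 leading genes per kb in both populations. It had 163.2, 104.0 and 130.1 CPM in the non-tuft-like and 72.3, 77.6 and 184.9 CPM in the tuft-like libraries, which overlapped (log2 fold change -0.25, SE 0.39, edgeR FDR = 1.0). Its partner Col8a2 lay between 0 and 3.15 CPM and Col10a1, the collagen of hypertrophic cartilage, between 0 and 2.81 CPM.

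The collagens of the epithelial anchoring complex, which fix basal cells to the tissue below, were not called. Col7a1 stood above the olfactory receptor background in 2 of 3 non-tuft-like and 0 of 3 tuft-like libraries, and Col17a1 in 3 of 3 and 2 of 3. Col7a1, the collagen of the anchoring fibril, had 20.6, 22.6 and 24.2 CPM in the non-tuft-like and 14.8, 7.16 and 10.4 CPM in the tuft-like libraries, without overlap (log2 fold change -1.06, SE 0.48, edgeR FDR = 0.554). Col17a1, the transmembrane collagen of the hemidesmosome, had 41.5, 18.0 and 24.7 against 25.3, 5.47 and 9.86 CPM, with overlap (log2 fold change -1.05, SE 0.60, FDR = 0.838). Of the other transmembrane collagens, Col25a1 had 7.60, 19.3 and 15.1 against 22.8, 21.7 and 0.138 CPM, and Col13a1 and Col23a1 were at or under 8.90 CPM in every library. Col26a1 and Col28a1, which belong to none of these classes, were at or under 10.8 CPM.

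A collagen chain has to be hydroxylated, folded, exported, trimmed and crosslinked, and 37 genes for these steps were followed in the same fit. Only Pcolce2 was called, with a higher level, and none was called lower, while 1 had a higher and 5 a lower level at an unadjusted p under 0.05. Over all tested genes, 2.11% were called and 8.97% had an unadjusted p under 0.05. Pcolce2 encodes an enhancer of the protease that trims the ends of fibrillar procollagens. It had 28.1, 17.1 and 9.38 CPM in the non-tuft-like and 60.7, 95.9 and 78.8 CPM in the tuft-like libraries, without overlap (log2 fold change 2.11, SE 0.42, edgeR FDR = 0.0290). This call was lost in 4 of the 6 fits that left out 1 library, without non-tuft-like library 2 (FDR = 0.112) or 3 (FDR = 0.0552) and without tuft-like library 2 (FDR = 0.121) or 3 (FDR = 0.0630). The median log2 fold change of the 37 genes was -0.41, with 12 above and 25 below 0.

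The most abundant of these genes per kb were P4hb, the shared subunit of prolyl 4-hydroxylase, Mia3, the export receptor TANGO1, and Ppib, a prolyl isomerase. P4hb had means of 650.2 ± 50.7 and 489.7 ± 234.8 CPM (non-tuft-like first), Mia3 155.8 ± 53.0 and 161.7 ± 45.9 CPM, and Ppib 114.5 ± 20.4 and 110.9 ± 42.6 CPM (SD, n = 3 each), each with an FDR of 1.0. Serpinh1, the collagen chaperone HSP47, and Pxdn, the peroxidase that crosslinks type IV collagen, were both without overlap and not called. Serpinh1 had 83.1, 48.6 and 57.5 against 33.7, 18.4 and 21.8 CPM (log2 fold change -1.36, SE 0.36, edgeR FDR = 0.105). Pxdn had 75, 80.7 and 88.8 against 14.2, 20.7 and 1.68 CPM (log2 fold change -2.74, SE 0.69, FDR = 0.0856). The Pxdn and Serpinh1 values are named for their roles after they had been seen.

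Of 14 genes for collagen receptors, 1 was called, beside 2.11% of all tested genes. Adgrg6, an adhesion G protein-coupled receptor that binds type IV collagen, had 24.4, 8.56 and 13.0 CPM in the non-tuft-like and 239.7, 301.9 and 328.6 CPM in the tuft-like libraries. The lowest tuft-like library was far above the highest non-tuft-like one (means 15.3 ± 8.17 and 290.1 ± 45.6 CPM, SD, n = 3 each, log2 fold change 4.25, SE 0.43, edgeR FDR = 0.000869). The call was kept in every alternative. Itgb1, the shared beta subunit of the collagen-binding integrins, had means of 158.5 ± 31.0 and 234.1 ± 76.6 CPM (FDR = 0.812), Adgrg1, a receptor of collagen III, 287.0 ± 51.1 and 165.3 ± 78.1 CPM (FDR = 0.584), and Ddr1, a collagen-activated tyrosine kinase of epithelia, 164.1 ± 14.0 and 86.6 ± 23.2 CPM (FDR = 0.197). The median log2 fold change of the 14 genes was 0.65, with 8 above and 6 below 0.

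Of 34 genes with collagen-like stretches, 31 were tested and none was called (2 had an unadjusted p under 0.05, both lower). Of all tested genes, 4.59% were lower at an unadjusted p under 0.05. The log2 fold changes of the 31 genes had a median of -0.79. The most abundant per kb were Colq, the anchor of acetylcholinesterase, at 146.5 ± 26.7 and 111.9 ± 43.6 CPM, Sftpd, a surfactant lectin, at 57.0 ± 19.7 and 32.7 ± 25.3 CPM, and C1qtnf1 at 38.1 ± 9.11 and 10.5 ± 8.54 CPM (non-tuft-like and tuft-like, SD, n = 3 each).

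**Figure D5:**
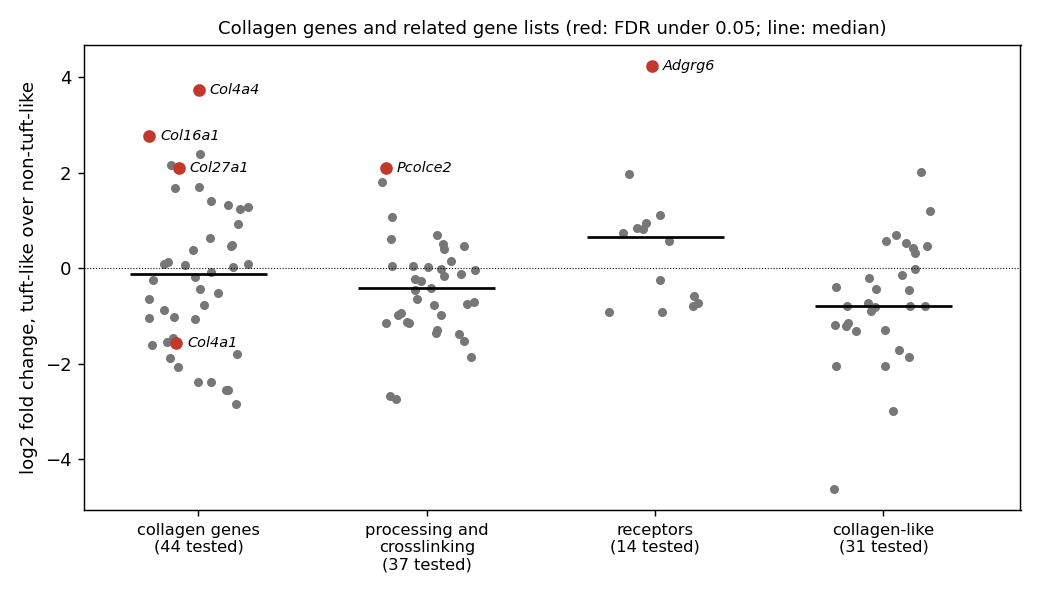
Log2 fold change (y axis), tuft-like over non-tuft-like mTEC, of the collagen genes and of the tested genes of 3 related lists (x axis). Each point is a gene, red points passed an FDR of 0.05 and black lines are medians, which stood at -0.13, -0.41, 0.65 and -0.79 from left to right.

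Collagen genes are long and rich in GC, so a fit with an offset for both is also given. Their median exonic length was 7543 bases in a median of 48 exon blocks with 55.1% GC, against 2522 bases and 47.8% GC for all tested genes. With an offset for GC content and length in each library, Col16a1, Col4a4 and Col27a1 were still called (FDR = 0.00203, 0.0184 and 0.0186) and Col4a1 was not (log2 fold change -1.40, FDR = 0.0889). Of 10 neighbouring pairs of collagen genes, with starts at most 440380 bases apart, 5 had log2 fold changes of the same sign and 5 of opposite sign. Only 2 of these pairs hold a called gene, Col4a4 with Col4a3 (3.74 and 0.39) and Col4a1 with Col4a2, whose exons overlap by 22 bases on chromosome 8 (-1.57 and -1.02).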

How the data were processed

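RNA of sorted cells was sequenced by the authors after an ultra-low input library protocol. Cells were sorted into trizol according to the methods, while a column kit is named in the labels. Per the submitters' processing notes and the methods, reads were trimmed with Trimmomatic (0.36), aligned to mm10 with STAR (2.7.3a) and assigned to genes with HTSeq (0.12.4, intersection-nonempty), and the authors deposited the raw read counts per gene without normalization. The annotation release and strand setting are not given in the sources used here. The 92 rows of ERCC controls, at 0 throughout, and 5 summary rows were left out of library sizes and tests. The share of reads assigned to no feature is given in the report. Symbols and exonic lengths came from GENCODE M21 (mm10), which with the gene name tables matched 99.7% of gene rows.

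Counts were filtered by filterByExpr (minimum count 10, minimum total 15), scaled by TMM and tested without covariates by edgeR's quasi-likelihood F-test (edgeR 4.0.16, limma 3.58.1, R 4.3.3) on all 6 libraries, with Benjamini-Hochberg adjustment over 32496 genes and an FDR threshold of 0.05. Standard errors are the absolute log2 fold change over the square root of F, and the fit was tested on simulated counts. Levels are TMM-normalised CPM, and levels of different genes were compared per kb of exon. With 20097617 to 48369825 counts on genes in a library, 3 counts equal 0.0639 to 0.124 CPM, and the common biological coefficient of variation was 1.10. With 3 libraries against 3, an exact permutation test cannot give a p under 0.10.

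The collagen genes and the lists of processing, receptor, collagen-like and marker genes were chosen with earlier results of these data known, so no list was tested as such. Library values are given for each collagen gene that was called, had an unadjusted p under 0.05 or had a mean of at least 10 CPM in a population. Of the related lists the called genes and the 3 most abundant per kb are named. Lists not described with the collagen genes, given as tested genes called higher and lower in tuft-like mTEC, were osteoblast (0 and 0 of 6), Schwann cell (0 and 0 of 5), thymic epithelium (0 and 1 of 6), thymocyte (0 and 0 of 5) and macrophage (0 and 0 of 5). Alternatives were RLE factors, library size only, DESeq2 1.42.0, limma voom, no filter or one on mean CPM, a block for the replicate number, omission of single libraries, subtraction of background counts per kb estimated from olfactory receptor genes, an offset for GC content and length, and an FDR of 0.01.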

Additional observations from a re-analysis of the deposited data

How the results depend on the processing

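Across 44 genes and up to 15 alternatives each, 563 of 654 log2 fold changes kept their direction and side of the threshold, 15 lost a call, 26 gained one and 50 changed sign. No called gene changed sign, and no changed sign had an unadjusted p under 0.05. The 4 collagen calls became 10 by DESeq2, 9 by limma voom, 10 without the filter on low counts, 2 after background subtraction and 1 (Col16a1) at an FDR of 0.01. With 1 library left out they ranged from 2 (without non-tuft-like library 1 or 2) to 6. The 687 calls among all genes became 1045 with library size only, 2023 by DESeq2, 1127 without the filter, 1054 after background subtraction and 319 at an FDR of 0.01, and 376 to 922 with 1 library left out. The single processing call became 4 by DESeq2, 2 by limma voom, 2 without the filter and 0 at an FDR of 0.01, and 0 to 1 with 1 library left out. It was lost without non-tuft-like library 2 or tuft-like library 2, and without non-tuft-like library 3 or tuft-like library 3 another gene was called in place of Pcolce2. The single receptor call became 2 with RLE factors or limma voom, 3 with library size only, DESeq2, a mean of at least 1 CPM, background subtraction or the offset, and 1 to 2 with 1 library left out. Deviations from the group means within a replicate number correlated by -0.117, -0.0462 and -0.290. With 3 libraries per population, these values cannot decide whether the numbers pair the samples. With the number as a replicate block, 6 collagen genes were called, 3 of them shared with the 4, with 2 processing genes, 1 receptor gene and 737 of all genes, and signs changed for Col1a1 (-0.12), Col4a3 (-0.19), Col4a6 (-0.42), Col6a3 (-0.14), Col22a1 (-0.028), Col13a1 (-0.97), Col25a1 (-0.72) and Col28a1 (-0.27). Signs also changed for Col1a1 (-1.17), Col1a2 (-0.016), Col3a1 (-1.52), Col11a1 (-2.28), Col4a3 (-1.44), Col4a6 (-1.89), Col6a3 (-1.21), Col13a1 (-1.97), Col25a1 (-2.05) and Col28a1 (-0.50) by limma voom, for Col22a1 (-0.021) after background subtraction and (-0.025) with library size only, and for Col28a1 (-0.029) without the filter. Genes whose sign changed with 1 library left out, with their range over those fits, were Col1a1 (-0.37 to 1.95), Col1a2 (-0.89 to 1.58), Col3a1 (-0.45 to 2.71), Col11a1 (-0.31 to 1.22), Col24a1 (-0.95 to 0.62), Col4a3 (-0.84 to 0.93), Col4a6 (-1.39 to 0.96), Col6a3 (-0.63 to 1.83), Col10a1 (-8.26 to 2.07), Col9a2 (-0.27 to 0.11), Col22a1 (-0.64 to 0.49), Col13a1 (-1.24 to 0.61), Col23a1 (-0.024 to 1.52), Col25a1 (-0.35 to 0.63), Col15a1 (-0.40 to 2.40) and Col28a1 (-0.62 to 0.45). The cause of these changes was not tested. At this depth a count of 0 allows up to 0.0639 to 0.124 CPM, and tuft-like library 3, with 45928255 counts the second deepest of the 6, held the most collagen genes at 3 counts or fewer.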
